A study of Mus musculus with 18 samples.

Results

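The 6 hypothalamus samples among the 18 RNA samples of a mouse study were set against its 6 gonadal adipose and 6 liver samples, gene by gene. Hypothalamus libraries were taken by their column headings, which name the tissue, and gene names were joined across the deposited tables of the 3 tissues. All animals were C57BL/6 males of 3 weeks. Their dams had been gavaged daily from 1 to 20 days after conception with bisphenol A (BPA, an estrogenic monomer of plastics) at 5 mg/kg in corn oil, or with corn oil alone, and the pups came from 4 BPA and 3 corn oil litters. The labels list 3 BPA and 3 corn oil samples per tissue, but the numbers heading the FPKM columns occur in no label, so treatment was not used and every tissue group mixes both treatments. Breeders ate a diet low in plant estrogens, pups ate standard chow, and all were kept without polycarbonate cages and bottles. Nothing in the labels says which tissues came from the same pup. The p-values therefore measure the spread between these libraries.

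The hypothalamus is a small region at the base of the brain that controls feeding, temperature, sleep, water balance and, through the pituitary, the endocrine glands. Its neurons form many small clusters, each defined by the peptide it releases: AgRP and NPY neurons of the arcuate nucleus drive feeding, POMC neurons restrain it, and neurons of the lateral area make melanin-concentrating hormone or orexin. Oxytocin and vasopressin are made by large neurons that send their axons to the posterior pituitary. A dissected hypothalamus also holds oligodendrocytes, astrocytes, tanycytes, microglia, blood vessels and, at its edges, thalamus, fibre tracts and choroid plexus.

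Expression was deposited as FPKM, fragments counted relative to transcript length and library size, which is a level per length. FPKM was summed over the transcript models of a gene name, and each library was divided by a scaling factor, so every value below is a scaled FPKM. The 3 tissue tables were assembled and quantified separately, so a tissue and its table cannot be told apart in any difference given here. The depth per library is unknown. Bulk tissue was sequenced, so fewer cells of a type and less RNA per cell cannot be told apart either.

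Promoters of 6 secretory genes that were higher in hypothalamus than in both other tissues are shown first. These genes were picked by hand, not by rank, and were listed at or near 0 outside the hypothalamus. Each sequence is the 250 bases before the RefSeq start on the gene's own strand, build GRCm38.p6 (mm10). Capitals mark the core promoter motif TATAAA. They also mark CATAAA, a variant of it that was picked after the sequences were read, and TGACGTCA, the cAMP response element. Both strands were searched, and the 3 motifs did not overlap each other in these windows.
Pmch chr10:88090822-88091071 (+): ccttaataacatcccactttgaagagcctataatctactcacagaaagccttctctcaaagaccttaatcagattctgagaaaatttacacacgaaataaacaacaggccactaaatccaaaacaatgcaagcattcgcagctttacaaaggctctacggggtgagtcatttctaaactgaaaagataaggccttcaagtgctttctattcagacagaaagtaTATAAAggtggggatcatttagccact
Hcrt chr11:100762932-100763181 (-): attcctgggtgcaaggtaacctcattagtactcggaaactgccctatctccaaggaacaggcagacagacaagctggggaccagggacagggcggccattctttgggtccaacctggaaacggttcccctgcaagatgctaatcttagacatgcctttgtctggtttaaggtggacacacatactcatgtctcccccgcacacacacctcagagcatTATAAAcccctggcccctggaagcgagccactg
Oxt chr2:130575919-130576168 (+): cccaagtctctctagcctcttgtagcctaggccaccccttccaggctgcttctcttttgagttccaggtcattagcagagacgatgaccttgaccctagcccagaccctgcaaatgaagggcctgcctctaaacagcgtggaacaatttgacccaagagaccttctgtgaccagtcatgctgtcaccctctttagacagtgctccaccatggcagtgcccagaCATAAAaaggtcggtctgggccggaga
Avp chr2:130582589-130582838 (-): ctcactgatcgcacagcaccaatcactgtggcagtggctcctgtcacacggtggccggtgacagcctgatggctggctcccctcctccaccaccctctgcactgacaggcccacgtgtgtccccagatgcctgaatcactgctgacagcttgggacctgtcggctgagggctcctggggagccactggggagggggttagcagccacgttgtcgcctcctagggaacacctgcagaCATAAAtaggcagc
Scg2 chr1:79440027-79440276 (-): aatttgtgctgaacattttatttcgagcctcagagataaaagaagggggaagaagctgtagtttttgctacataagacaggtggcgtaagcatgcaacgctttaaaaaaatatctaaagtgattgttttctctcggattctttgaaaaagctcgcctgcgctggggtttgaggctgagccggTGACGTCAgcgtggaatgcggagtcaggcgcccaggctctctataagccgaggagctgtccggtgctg
Chgb chr2:132781392-132781641 (+): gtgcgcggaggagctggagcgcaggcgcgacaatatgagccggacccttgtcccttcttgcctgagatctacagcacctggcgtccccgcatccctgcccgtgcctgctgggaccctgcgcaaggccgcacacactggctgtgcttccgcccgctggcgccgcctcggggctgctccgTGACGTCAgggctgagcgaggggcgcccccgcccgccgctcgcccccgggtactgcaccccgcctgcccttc

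TATAAA began 27 bases before the start in Pmch and 33 bases before it in Hcrt. Read in the gene's direction at 40 to 20 bases before the start, TATAAA stood in 2.22% of 27025 RefSeq promoters, in 1.42% of the 9447 matched to tested names and in 1.34% of the 2096 promoters matched to gene names higher in hypothalamus than in both other tissues. Oxt and Avp had CATAAA, beginning 27 and 14 bases before their starts, inside a run of 10 bases (cagacataaa) that both windows share. CATAAA on either strand anywhere in the 250 bases occurred in 11.1% of all promoters, 5.99% of the 9447 and 5.39% of the 2096, and in the gene's direction at 40 to 20 bases before the start in 0.803%, 0.402% and 0.334%. Scg2 and Chgb, which encode secretogranin II and chromogranin B of dense-core vesicles, had TGACGTCA 68 and 72 bases before the start. That element occurred in 1.62% of all promoters, in 2.72% of the 9447 and in 2.91% of the 2096. The RefSeq start equalled the deposited 5′ end for Pmch, Hcrt and Oxt and lay 47 bases upstream of it for Avp. For Scg2 and Chgb the deposited models also began elsewhere. Oxt (chromosome 2, 130576169 to 130577053, plus strand) and Avp (130580677 to 130582541, minus strand) face each other tail to tail with 3623 bases between them.

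The tissue label was checked against 5 markers of hypothalamus, neurons and myelin. Agrp, the agouti-related peptide of feeding-promoting neurons, had in the library headed 03 5.9 FPKM, in 13 5.66, in 15 4.53, in 25 1.32, in 28 4.73 and in 42 5.33, and was listed at 0 in all 12 other libraries. Library 25 was the low value and the other 5 lay close together. Nefh, the heavy neurofilament of large axons, gave 4.69, 8.17 and 20.9 FPKM (lowest, median and highest), with the highest value in the same library 25, and was listed at 0 in all others. Srcin1, a regulator of SRC kinase at synapses, gave 17, 19 and 23.5 FPKM, against 0 elsewhere. Gria2, the AMPA receptor subunit that limits calcium entry, gave 15.6, 19.6 and 22.2 FPKM and reached 0.192 in adipose. Mobp, a structural myelin protein, gave 89.6, 103 and 156 FPKM, was 0 in adipose and reached 1.89 in liver. In all 5 the 6 hypothalamus libraries lay above the 12 others, as they did for 29.7% of all tested names. The leading Agrp model spans chromosome 8, 105566598 to 105568037 on the minus strand, and the leading Mobp model chromosome 9, 120149599 to 120190283 on the plus strand. The leading models of Nefh (4938756 to 4948064) and Srcin1 (97509329 to 97574062) lie on the minus strand of chromosome 11, and that of Gria2 on the minus strand of chromosome 3, 80684936 to 80802791.

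**Figure D1:**
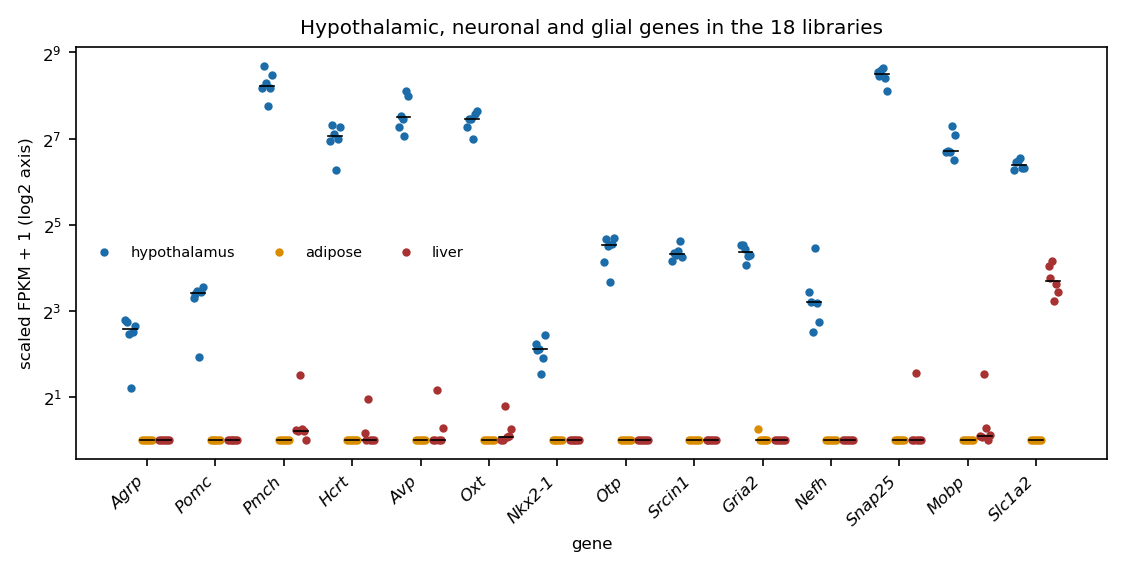
Scaled FPKM + 1 (log2 axis) of 14 genes in the 6 hypothalamus (blue), 6 adipose (orange) and 6 liver (red) libraries; each point is 1 library and the bar the median. Every blue point lies above the orange and red points of its gene, liver library 15 is the raised red point for Pmch, Snap25 and Mobp, and Slc1a2 is the gene with a sizeable level in liver.

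Other tissue markers were low in these libraries. The adipocyte genes Adipoq, Plin1 and Cidec were listed at 0 in all 6 hypothalamus libraries, against medians of 797, 212 and 301 FPKM in adipose. Albumin (Alb) stood at 17.1, 18.1 and 43.9 FPKM in hypothalamus, between 0.04035% and 0.1033% of its liver median, and was highest in libraries 42 and 15. The pituitary hormone genes Gh and Prl were listed at 0 throughout. The summed level of 23 choroid plexus and ependymal markers was 640.9 FPKM in library 03 and 100.8 to 114.1 in the other 5, almost all through transthyretin (Ttr), with 483 FPKM in library 03 and 1.63 to 6.88 elsewhere. Kl, another plexus marker, was also highest there (2.95 FPKM), while Folr1 was at 0 in all 6. In the opposite direction, the 100 genes with the highest hypothalamus medians among those called higher below were followed. In liver library 15, 94 of them were above 0, against 64 to 74 in the other 5 liver libraries and 70 to 80 in adipose. Their median level relative to hypothalamus was 0.886% in liver 15, 0.246% to 0.578% in the other liver libraries and 1.43% to 3.27% in adipose. A list of epididymis and male gonad markers varied widely among the adipose libraries, summing to between 5.25 and 4619 FPKM. Counts over all names are given below with and without libraries 03 and 25 and liver 15.

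Of 23904 gene names in all tables, 12628 reached 1 FPKM in at least 6 libraries and were tested. A name was called when the difference passed an adjusted p of 0.05 (limma on log2(FPKM + 1), Benjamini-Hochberg over all tested names) and reached 2-fold on that scale in both contrasts. Higher in hypothalamus than in both tissues were 2831 names (22.4%) and lower than in both were 1055 (8.35%). Against adipose alone 3337 names (26.4%) were higher and 2417 (19.1%) lower, and against liver alone 4507 (35.7%) were higher and 2351 (18.6%) lower. The share of higher among the calls against both depends on the scaling: it was 72.85% here, 86.77% with FPKM as deposited and 82.78% after scaling to equal sums. The median difference over all tested names was 0.12 against adipose and 0.41 against liver on the log2 scale, 0.62 and 0.94 with FPKM as deposited, and 0.37 and 1.42 with equal sums, so the differences below are read against those medians. Without hypothalamus libraries 03 and 25 and liver 15, 2880 names were higher and 1038 lower, and 2761 and 997 of these were shared with the full set.

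Of the 2831 higher names, 2698 (95.3%) had all 6 hypothalamus libraries above all 12 others, as had 29.7% of all tested names. Both rules use the same values and the 29.7% includes these names, so the overlap adds no support. A group of 700 (24.73%) were listed at 0 in all 12, and for such genes no fold is given. A listed 0 can also be a failed estimate, since Eef1a1, a translation factor of every cell, was at 0 in 17 libraries and Pclo, Cacna1a and Crmp1, which neurons use, were at 0 in all 6 hypothalamus libraries. A gene present in hypothalamus alone could enter the test only through its hypothalamus values, so the list counts below describe these libraries and are no independent support. Every list count is to be read beside the 22.4% higher and 8.35% lower over all tested names.

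**Figure D2:**
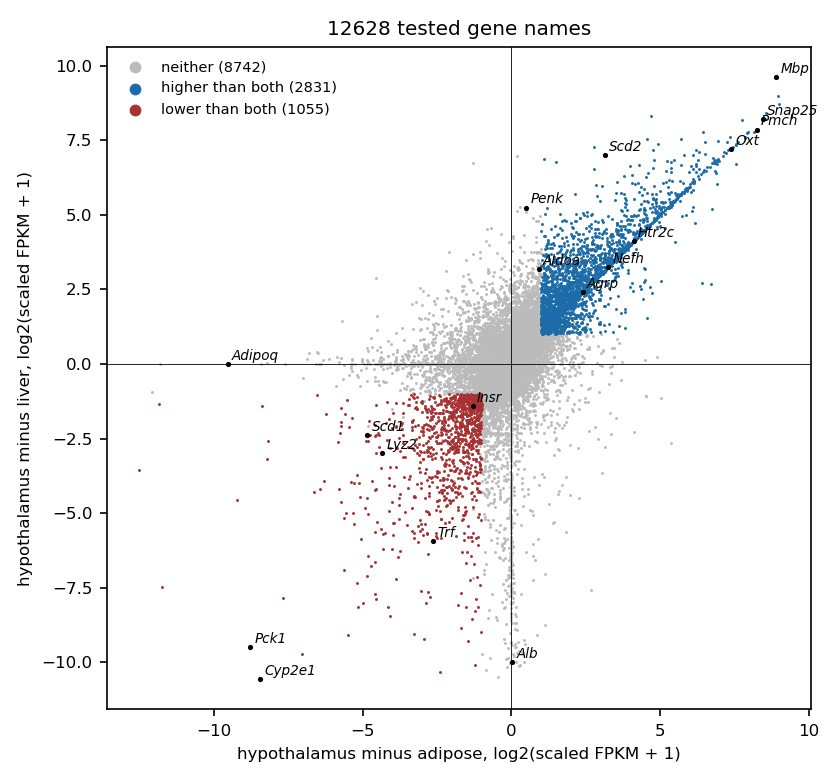
Difference between hypothalamus and adipose (x) against that between hypothalamus and liver (y), both in log2(scaled FPKM + 1), for the 12628 tested names; blue marks the 2831 higher than in both, red the 1055 lower than in both. Myelin, synaptic and peptide genes lie at the upper right, Cyp2e1 and Pck1 at the lower left, and Penk and Alb lie beside an axis because 1 of the other tissues had a level like that of hypothalamus.

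Peptide precursors were among the highest hypothalamic transcripts. Of 31 peptide genes with values, 26 were tested and 24 of them were higher than in both tissues, 20 of the 26 having reached 1 FPKM in hypothalamus alone. The median difference of those tested was 3.64 against adipose and 4.32 against liver on the log2 scale. Pmch, the melanin-concentrating hormone precursor, led with 215, 299 and 413 FPKM, at 0 in adipose and up to 1.85 in liver 15. Avp (vasopressin) gave 133, 179 and 274 FPKM, Oxt (oxytocin) 127, 175 and 199 and Hcrt (orexin) 76.9, 132 and 158. In each of these 4 genes the lowest hypothalamus library was number 25 and the liver value above 0.7 FPKM belonged to library 15. Pomc, the melanocortin precursor, stood at 2.84 FPKM in library 25 and at 8.83 to 10.8 in the other 5, with 0 elsewhere. Npy was higher by 2.31 (SE 0.93, adjusted p = 0.031) against adipose, where 1 library reached 77 FPKM, and the call was lost when any of 7 single libraries was left out, the difference then lying between 1.79 and 2.27.

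Penk and Nmb were the 2 tested peptide genes not called. Penk, the enkephalin precursor, gave 24, 40.2 and 50.4 FPKM in hypothalamus and 11.7, 26.9 and 53.3 in adipose, which overlap (difference 0.50, SE 0.26, adjusted p = 0.09), and differed from liver by 5.24. The Penk difference from adipose passed 2-fold and the adjusted p with FPKM as deposited (1.09), and passed the adjusted p under 2-fold with equal sums (0.76), in the gene table (0.59) and without hypothalamus 25 (0.62), adipose 03 (0.70) or libraries 03 and 25 and liver 15 (0.72). Nmb (neuromedin B) gave 1.6, 2.87 and 3.2 FPKM and 0.984, 1.61 and 2.9 in adipose, a difference of 0.45 (SE 0.16), under 2-fold. Gnrh1 and Kiss1, which drive the reproductive axis, were too low to test, at 0.519, 1.34 and 1.64 and 0.441, 0.628 and 0.801 FPKM.

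Transcription factors that pattern the hypothalamus were expressed at a lower level. Of 32 in the tables only 20 could be tested, 16 were higher than in both tissues and 1, Tbx3, was lower, and with equal sums the higher count was 26. Arnt2, the partner of SIM1 in neuroendocrine neurons, gave 17.9, 27.5 and 29.6 FPKM, Otp (a homeodomain factor of the same lineage) 11.8, 22.1 and 24.8, Six3 4.03, 5.9 and 6.58 and Vax1 2.82, 5.48 and 6.19. Nkx2-1, required for the ventral hypothalamus, gave 1.91, 3.3 and 4.44 FPKM. Otp, Six3, Vax1 and Nkx2-1 were at 0 in all 12 other libraries, and Arnt2 reached 3.82 in adipose. Sim1 stayed under 1 FPKM (0.313, 0.702 and 0.949) and was not tested.

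Receptors for feeding signals and hormones were divided. Of 30, 19 were tested, 15 were higher and 2, Insr and Avpr1a, were lower. The higher count was 23 with equal sums and 19 without libraries 03 and 25 and liver 15, and the lower count was 1 with FPKM as deposited, with equal sums and in the gene table. Ntrk2, the receptor of brain-derived neurotrophic factor, gave 61.8, 71.2 and 88.2 FPKM against 4.12, 5.14 and 6.55 in adipose (difference 3.56, SE 0.12, adjusted p = 5.88e-15). Htr2c, the serotonin receptor through which serotonin reduces feeding, gave 15, 15.9 and 18.2 FPKM and was listed at 0 elsewhere, and Cntfr and Cnr1 gave medians of 20.5 and 10.2 FPKM. The insulin receptor (Insr) gave 2.45, 3.59 and 4.21 FPKM in hypothalamus, 5.41, 8.77 and 23.6 in adipose and 7.23, 10.4 and 15.6 in liver, with no overlap (differences -1.30 and -1.40, SE 0.25); with FPKM as deposited they were -0.80 and -0.83, and with equal sums the difference from liver was -0.60, and in the gene table that from adipose was -0.93, so the call was lost in all 3. Glp1r was untested, with 2.89 to 3.79 FPKM in 5 hypothalamus libraries and 0 in library 25.

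Of 25 genes of transmitter synthesis and transport 16 were tested and 12 were higher. Slc6a11 (GAT3), a transporter of glia that removes GABA from the extracellular space, had the highest level in the list with 147, 155 and 175 FPKM. Gad1, which makes GABA, gave 44.1, 52.6 and 65.2 FPKM and Ache, which breaks down acetylcholine, 42.9, 50.0 and 60.5. Gad1 and Ache were at 0 in all other libraries. Ddc, which makes dopamine and serotonin, was at 10.8, 13.4 and 21.1 FPKM in hypothalamus and 17.6, 19.6 and 25.6 in liver, a difference of -0.54 (SE 0.22) whose sign turned under both other scalings. Maob gave 7.96, 9.89 and 12.5 FPKM, overlapping 6.05, 8.81 and 12.7 in adipose and below 52.5, 59.1 and 72.8 in liver.

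On the receiving side, 27 of 32 glutamate and GABA receptor subunits were tested and all 27 were higher than in both tissues; 21 of these had reached 1 FPKM in hypothalamus alone. Grin1, the obligatory NMDA receptor subunit, gave 48.1, 57.9 and 66.3 FPKM, Gria1 35.8, 41.5 and 43.7 and Gabbr2, a GABA-B subunit, 50.4, 65.6 and 105. The 5 untested members were Grin2a, Grin2b, Grik1, Gabra5 and Gabrd. Among 34 synaptic vesicle and scaffold genes 32 were tested and 30 were higher: the SNARE protein Snap25 gave 276, 361 and 396 FPKM, the vesicle protein Syp 279.6, 293 and 316, Vamp2 196, 250.4 and 266 and Rab3a 184, 196 and 217. Vamp2 was also present in adipose (4.22, 4.65 and 6.39) and liver (3.99, 5.09 and 7.14), and its differences were 5.36 and 5.26 (SE 0.12). Shank3, a postsynaptic scaffold, overlapped adipose (4.04, 10.1 and 30.7 against 1.87, 8.65 and 16.4 FPKM) and was not called (difference 0.56, SE 0.46), but passed with FPKM as deposited (1.11) and in the gene table (1.37). Of 29 voltage-gated channel genes 17 were tested and all were higher, among them the sodium channel beta subunit Scn2b (39.9, 41.4 and 44.8 FPKM), Hcn2 (32.5, 36.6 and 50.1) and Kcnj9 (22.3, 28.9 and 43.6); 7 of the 12 untested channels were listed at 0 in all 6 hypothalamus libraries.

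Cytoskeletal genes of neurons and genes of regulated secretion followed. Of 27 cytoskeletal genes 25 were tested and 23 were higher, with Tubb3, the neuronal tubulin, at 179.8, 194 and 222 FPKM, the growth cone protein Gap43 at 161, 181 and 201 and Stmn2 at 128, 141 and 150.0. Kif5a, a kinesin of axonal transport, gave 228 to 279 FPKM in 5 libraries and 47.5 in library 42. As deposited, its leading model stood at 299.8 to 354.7 FPKM in those 5 and at 1.416 in library 42, which can be a failed estimate. Dpysl2, a growth cone protein, gave 29, 31 and 36.1 FPKM against 11.2, 16.6 and 22.3 in adipose, just under the 2-fold limit (difference 0.97, SE 0.15) and past it with FPKM as deposited (1.55), equal sums (1.25), a pseudocount of 0.1 (1.01) and without adipose 10, 15 or 25 (up to 1.06). Pcsk1n, an inhibitor of the prohormone convertase, gave 369, 409.7 and 448 FPKM and Resp18 183, 256 and 269. Carboxypeptidase E (Cpe), which trims peptide hormones, gave 635, 784 and 859 FPKM, against 18, 29.2 and 44.8 in adipose and 0.68, 1.11 and 4.73 in liver. A list of pituitary genes held 24 members, of which 8 could be tested and were higher: the granins Scg2 (57.7, 134 and 171 FPKM), Chga (77.3, 90.4 and 96.3) and Chgb (9.5, 60.2 and 67.1), shared by all neuroendocrine cells, and Dlk1 (26.9, 42.6 and 49.6) were the most abundant, whereas Cga, the subunit shared by pituitary hormones, reached 3.34 FPKM in library 42 and was 0 in library 25.

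**Figure D3:**
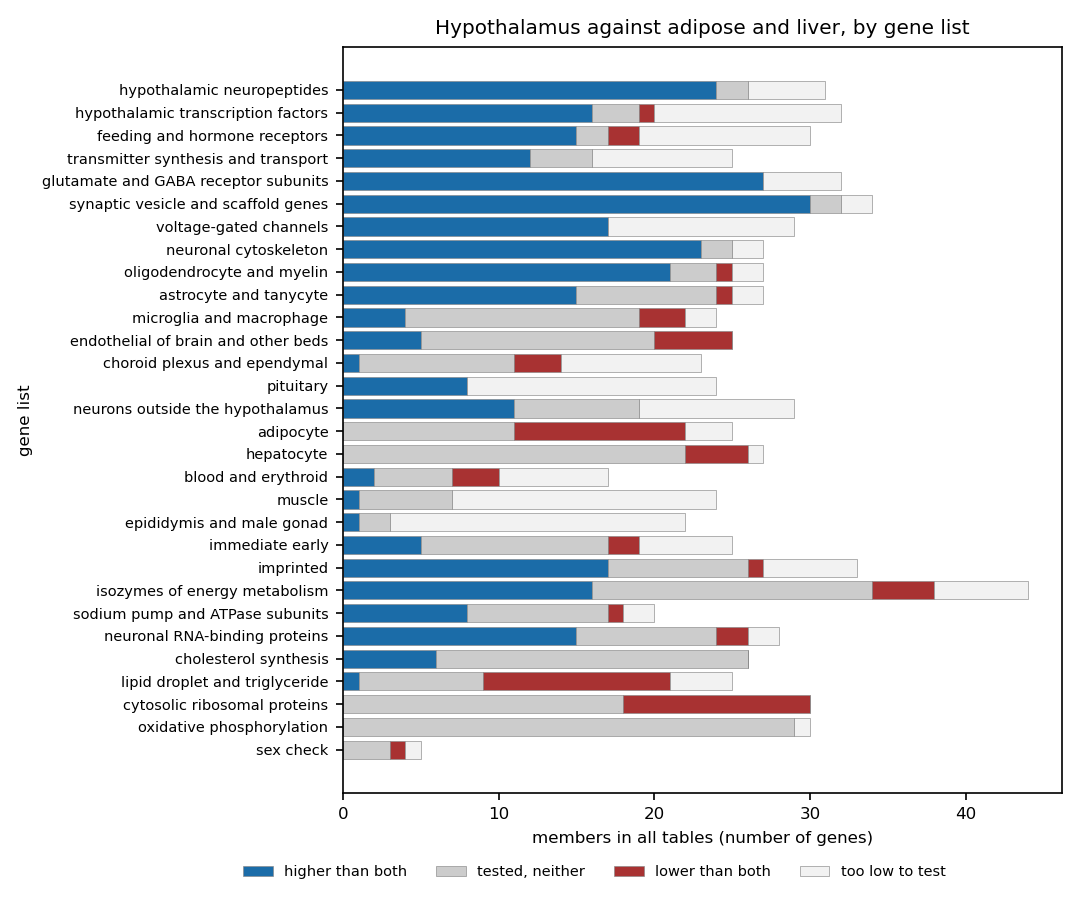
Number of members of each of 30 gene lists that were higher in hypothalamus than in both other tissues (blue), tested and not called (grey), lower than in both (red) or too low to test (white). The peptide, glutamate and GABA receptor, synaptic, cytoskeletal and myelin lists are mostly blue, with 24 of 31 peptide genes, the adipocyte and lipid droplet lists mostly red or grey, and oxidative phosphorylation all grey but for 1 untested member.

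Most tested myelin genes were higher in hypothalamus than in both other tissues. Of 27 oligodendrocyte and myelin genes 25 were tested, 21 were higher and 1 lower. Mbp, the myelin basic protein, gave 1424, 1606 and 2247 FPKM, the highest level of any called gene, with library 25 highest. Cnp and Mal gave medians of 212 and 191 FPKM. Trf, transferrin, which oligodendrocytes and hepatocytes both make, gave 69.8, 74.9 and 105 FPKM in hypothalamus against 323, 521 and 665 in adipose and 3618, 5136 and 6057 in liver (differences -2.64 and -5.95, SE 0.18). Pdgfra, the mark of oligodendrocyte precursors, gave 9.9, 11.2 and 12.5 FPKM and overlapped adipose (10.8, 19.1 and 31.9), where fibroblast-like cells carry it. Gjb1, a gap junction protein of oligodendrocytes and hepatocytes, gave 2.94, 3.72 and 5.9 FPKM against 247, 292 and 328 in liver.

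Of 27 astrocyte and tanycyte genes 25 were tested, 15 were higher and 1, Aldh1l1, was lower (0 with FPKM as deposited). The glutamate transporters Slc1a3 and Slc1a2 gave 99.3, 113 and 132 and 76.7, 83 and 92.6 FPKM. Slc1a3 also had 24.9, 40.3 and 52.5 FPKM in adipose and none above 0.233 in liver, and Slc1a2 had the reverse pattern, with 0 in adipose and 8.33, 12 and 16.8 FPKM in liver. Their differences were 1.51 (SE 0.14) for Slc1a3 against adipose and 2.70 (SE 0.12) for Slc1a2 against liver. Ntsr2, a neurotensin receptor of astrocytes, gave 55, 60.5 and 66.1 FPKM. Gja1, the astrocyte connexin, gave 55.8, 61.1 and 64.7 FPKM and overlapped adipose (14.6, 29.8 and 77.5), where the difference was 0.91 (SE 0.30), under the 2-fold limit; it was 1.5 with FPKM as deposited, 1.17 with equal sums and 1.08 and 1.16 without adipose 03 or 25. Glul (glutamine synthetase) gave 191 to 281 FPKM in 4 hypothalamus libraries and 0.531 and 1.72 in libraries 25 and 42, so no level is drawn from it.

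Microglial and endothelial lists were mixed. Cx3cr1, P2ry12, Trem2 and Siglech were higher than in both tissues among 22 tested macrophage genes, and Lyz2, Mrc1 and Cd163 were lower; 5 were lower with a pseudocount of 0.1 and without adipose 25 or adipose 42. Trem2 lay under 2-fold against adipose in the gene table (0.51) and without adipose 25 (0.93). Cx3cr1, the fractalkine receptor, gave 4.88, 6.03 and 6.32 FPKM against 0.646, 1.38 and 3.15 in adipose (difference 1.48, SE 0.16), and P2ry12, an ADP receptor of microglia, 2.05, 5.44 and 6.36. Lyz2, a lysozyme of macrophages, was 3.03, 3.35 and 3.91 FPKM against 70.6, 77.8 and 128 in adipose and 30.6, 33.4 and 39.1 in liver. The complement gene C1qa was 13, 15 and 15.7 FPKM, below both tissues but at -0.99 against adipose, short of the 2-fold limit; it lay between -1.07 and -1.01 with a pseudocount of 0.1 and without hypothalamus 13 or 15 or adipose 10, 25 or 42, and its difference from liver was -0.45 with FPKM as deposited and -0.13 with equal sums. Of 25 tested endothelial genes 5 were higher and 5 lower, beside 22.4% and 8.35% of all tested names. Slco1c1, the thyroxine carrier of the blood-brain barrier, gave 6.3, 7.43 and 8.44 FPKM and Slc22a8 2.95, 3.3 and 3.72, with 0 in all other libraries. Plvap, Gpihbp1, Cd36, Fabp4 and Lyve1 were the lower members. The list summed to a median of 6919 FPKM in adipose and 308.9 in hypothalamus. Which cells of each tissue carried these transcripts was not tested, so no difference between vessels is read from them. Cldn5, the tight junction claudin, gave 14.2, 16.6 and 21.4 FPKM, under adipose (27.9, 81.2 and 143) and over liver (2.19, 2.79 and 3.7).

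For some enzymes and pumps a family member was called higher in hypothalamus while a partner was not called or was lower. The partner could still be the more abundant form there, as Aldoa was beside Aldoc. Ckb, Eno2 and Hk1 are given without a partner. Of 44 isozyme genes 38 were tested, 16 were higher and 4 lower, beside 22.4% and 8.35% of all tested names. Creatine kinase B (Ckb) gave 386, 433 and 516 FPKM against 15.4, 25.4 and 62.7 in adipose and 2.44, 3.57 and 4.9 in liver (differences 3.98 and 6.62, SE 0.24). Aldolase C (Aldoc) gave 136, 205 and 217 FPKM, with differences of 6.16 and 4.72 (SE 0.39), whereas aldolase A (Aldoa) gave 363, 503 and 539.6 and differed from adipose by 0.93 (SE 0.13), under the limit but past it with FPKM as deposited (1.54), with equal sums (1.18) and without libraries 03 and 25 and liver 15 (1.07). Lactate dehydrogenase B (Ldhb), which favours lactate use, was 157, 174 and 227 FPKM against 16.1, 23.4 and 41 and 1.39, 1.75 and 2.61. Lactate dehydrogenase A (Ldha) ran the other way with 60.9, 69 and 76.1, 83.9, 135 and 169 and 398, 469 and 609.6 FPKM in hypothalamus, adipose and liver. Against adipose the Ldha gap was narrow (76.1 to 83.9 FPKM) and rests on the scaling used. Its difference there reached 2-fold, at -1.06, without adipose 03. Enolase 2 (Eno2) gave 151, 173 and 192 FPKM and hexokinase 1 (Hk1) 49.5, 50.7 and 54.1, while Acsl1, which activates fatty acids, was lower at 7.2, 8.3 and 8.79 FPKM.

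**Figure D4:**
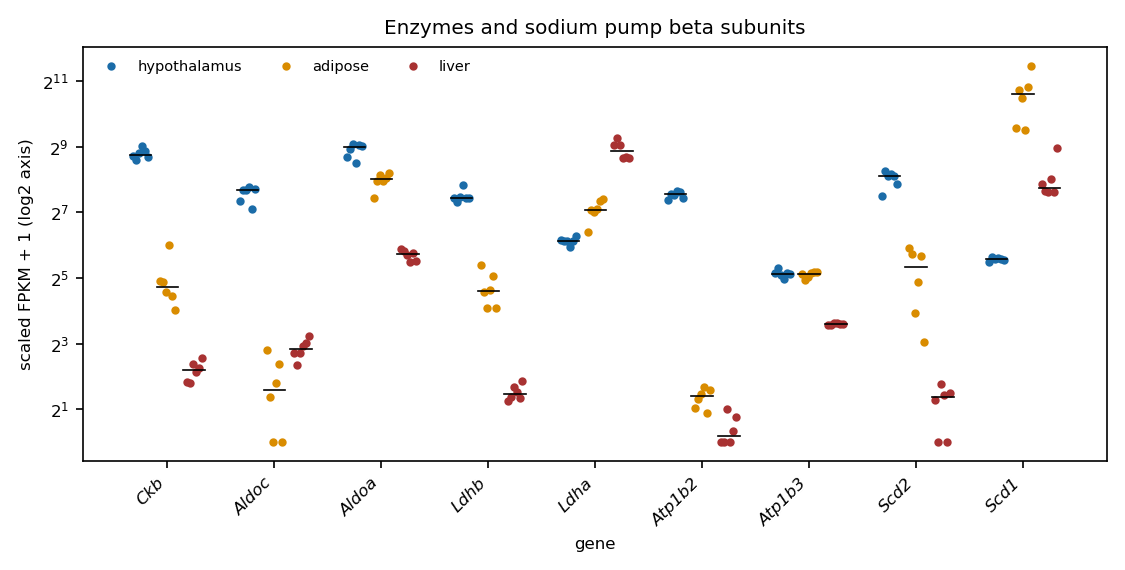
Scaled FPKM + 1 (log2 axis) of 9 genes of enzymes and sodium pump beta subunits in each library, coloured by tissue, with bars at the medians. Ckb, Aldoc, Ldhb, Atp1b2 and Scd2 are highest in hypothalamus, Ldha and Scd1 lowest there, and Atp1b3 has medians of 33.9, 33.9 and 11.1 FPKM in hypothalamus, adipose and liver.

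Among beta subunits of the sodium pump, Atp1b2, the form of glia, gave 167, 186 and 199 FPKM and reached 2.2 in adipose and 0.992 in liver. Atp1b3 gave 30.6, 33.9 and 38.2 FPKM in hypothalamus, 29.9, 33.9 and 35.4 in adipose, which overlap, and 10.7, 11.1 and 11.3 in liver; its differences were 0.03 (SE 0.06, adjusted p = 0.67) and 1.54. With FPKM as deposited and with equal sums the difference of Atp1b3 from adipose was 0.62 and 0.27 and passed the adjusted p, under 2-fold. Of 20 pump and ATPase genes 18 were tested, 8 were higher and 1, the calcium pump Atp2a2, was lower. The shares over all tested names were 22.4% and 8.35%. Stearoyl-CoA desaturases also exchanged: Scd2 gave 181, 274 and 303 FPKM against 7.35, 39.2 and 59.9 and 0, 1.56 and 2.38 and Scd1 43.9, 46.9 and 48.6 against 727, 1551 and 2830 and 195, 215 and 494, with no overlap in either. The Scd1 differences were -4.85 and -2.37 (SE 0.29).

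In other lipid genes, 12 of 21 tested genes of lipid droplets and triglyceride handling were lower and 1, Scd2, higher (0 in the gene table); under both other scalings 10 were lower. Fitm2, which helps droplets bud, gave 12.6, 13 and 13.5 FPKM against 39.4, 107 and 151 in adipose and 20.9, 32.5 and 41.2 in liver, where its difference was -0.54 with FPKM as deposited and -0.22 with equal sums and the call was lost, and Mgll, which also ends endocannabinoid signalling in brain, 4.14, 10.7 and 14.1 against 45.4, 96.5 and 141 and 27.1, 42.1 and 56.2. Of 26 cholesterol genes 6 were higher, a share near the 22.4% of all tested names, and 10 were higher with equal sums. Cyp46a1, which turns cholesterol into the 24-hydroxy form that leaves the brain, gave 23.5, 30.8 and 47.6 FPKM and 0 elsewhere. Srebf2, the master regulator of the pathway, gave 25.9, 27.5 and 29.2 FPKM against 3.58, 6.63 and 8.45 and 6.37, 8.8 and 13.5. Apoe, the main lipid carrier of the brain, gave 669.7, 775 and 883 FPKM, under 6938, 9209 and 11756 in liver, and its difference from adipose (-0.47, SE 0.19) turned to 0.14 with FPKM as deposited.

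Imprinted genes, expressed from 1 parental allele and known for roles in feeding and growth, were often higher. Of the 33 imprinted genes with values, 27 were tested, 17 were higher and 1, H19, was lower. Over all tested names 22.4% were higher and 8.35% lower. Under the other scalings 17 and 18 imprinted genes were higher. Snurf, of the locus deleted in Prader-Willi syndrome in humans, gave 293, 333 and 378 FPKM against 1.23, 1.84 and 2.25 in adipose and 3.65, 4.01 and 4.52 in liver (differences 6.91 and 6.05, SE 0.09). Ndn (necdin), from the same region, gave 139 to 178 FPKM in 5 libraries and 309.8 in library 42, Impact gave 86.5, 116 and 119.8 FPKM, and the long noncoding RNA Meg3 24.6, 60.6 and 99.2. Nnat (neuronatin) spread widely: it had 84.9, 58.9, 108, 178, 259.9 and 327 FPKM in libraries 03, 13, 15, 25, 28 and 42. These overlap adipose (32.2, 61.4 and 133), and the call against adipose (1.10, adjusted p = 0.021) was lost, at 0.92, 0.86 and 0.89, without hypothalamus 28, hypothalamus 42 or adipose 03; it was also lost in the gene table (0.35) and with a pseudocount of 0.1 (1.11). Igf2, an imprinted growth factor that meninges and choroid plexus make in the brain, gave 21.9, 35.6 and 42.2 FPKM against 2.89, 6.89 and 8.59 in adipose and at most 0.258 in liver.

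Of 28 RNA-binding proteins that shape neuronal splicing 26 were tested, 15 were higher and 2 lower (4 with a pseudocount of 0.1). Among all tested names the shares were 22.4% and 8.35%. Celf4 gave 43.4, 48.8 and 54.5 FPKM, Elavl3 (HuC) 21.2, 22.8 and 24.2, and Rbfox2 13.7, 17.6 and 18.7 against 5.15, 7.11 and 9.04 in adipose. The 2 lower members were Ptbp1 and Ptbp3, repressors of neuronal exons; Ptbp1 gave 5.5, 5.98 and 6.68 FPKM against 16, 22.2 and 25.7 and 16, 23 and 26.6 (differences -1.67 and -1.73, SE 0.12; -0.85 against liver, and not called, with equal sums). Of 30 cytosolic ribosomal protein genes 12 were lower, but only 1 was lower with FPKM as deposited or with equal sums. Of 29 tested oxidative phosphorylation genes limma called 0 in either direction, and 1 was lower with a pseudocount of 0.1, in the gene table and without hypothalamus 25, adipose 15 or libraries 03 and 25 and liver 15; without the 2-fold limit 4 were lower than in both tissues at an unadjusted p under 0.05, and 0 were higher.

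Of the 1055 names lower in hypothalamus, 905 (85.78%) had all 6 hypothalamus libraries below the other 12, as had 12.8% of all tested names. Here too both rules use the same values, so the overlap adds no support. Cyp2e1, a cytochrome P450 of ethanol and fatty acid oxidation, gave 1.26, 1.36 and 4.98 FPKM against 671, 1008 and 1690 in adipose and 3082, 4702 and 5443 in liver. Pck1, the rate-limiting enzyme of gluconeogenesis, gave at most 0.945 FPKM against 258, 608 and 808 and 529, 886 and 1182. Mgst1, a glutathione transferase, gave 8.77, 9.19 and 11.5 FPKM and Ftl1, the ferritin light chain, 81.2, 95.5 and 104, against medians of 395 and 458 in adipose and 1726 and 1864 in liver. Tpt1, the translationally controlled tumour protein, gave 156, 179 and 208 FPKM against 439, 524 and 741 and 721, 749 and 881, with a difference from adipose of -1.58, or -0.98 with FPKM as deposited. These 5 and Trf were the lower names with the highest levels in both other tissues. Hba-a1, a haemoglobin chain of red cells, gave 55.4, 143 and 229 FPKM in hypothalamus, 259, 445 and 1429 in adipose and 142, 322 and 611 in liver, where values overlap; its difference from liver, -1.33, was -0.66 with FPKM as deposited and -0.32 with equal sums, neither past the test.

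The 6 hypothalamus libraries differed among themselves along a few sets of genes, chosen after their values were seen. Over 5959 names with a median of at least 5 FPKM the SD of log2(FPKM + 1) had a median of 0.13, and 131 names reached 1. Some of these were on or off in single libraries, as was Cox8a, a respiratory chain subunit, with 0.167 FPKM in library 28 and 113 to 302 in the others. Prkcd, a protein kinase C enriched in thalamus, was 76.2 FPKM in library 25, 31.8 in 15, 23.4 in 03, 14.3 in 28, 7.25 in 13 and 2.7 in 42. Slc17a7, the vesicular glutamate transporter of cortex and thalamus, followed with 30.8, 9.61, 9.69, 4.19, 1.9 and 0.517 FPKM in that order of libraries. Gabrd, an extrasynaptic GABA-A subunit, ran from 0.415 FPKM in library 42 to 16.7 in library 25, and Tcf7l2, a transcription factor of thalamus, from 2.5 to 21.8 with the same ends. Ntng1, Zic1 and Rora also had their highest values in library 25 (20.7, 33.5 and 14.3 FPKM) and their lowest in library 42 (2.81, 8.48 and 3.26).

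In library 25 hypothalamic neuron genes were low at the same time. Agrp, Pomc, Npy, Otp, Nkx2-1, Pmch and Hcrt had their lowest value there, as did Chgb (9.5 FPKM against 39.9 to 67.1). The leading Chgb model was listed at 0 in libraries 25 and 42, and a listed 0 can be a failed estimate. Mbp and Cnp were highest in library 25. The summed level of 29 markers of neurons outside the hypothalamus was 409.8 FPKM there, against 199.1 to 313.6 in the other 5. The 31 peptide genes summed to 917.2 FPKM there and 1127 to 1409 in the others. These values moved together in a single library, and the cause was not tested. Without libraries 03, 25 and liver 15 the counts for lists of this paragraph stayed close: 25 peptide genes, 20 myelin genes and 11 markers of other neurons were higher than in both tissues, against 24, 21 and 11 with all libraries. The 3 libraries were left out together, so these counts do not single out library 25. The tested peptide and myelin genes lay at medians of 3.64 and 4.50 above adipose on the log2 scale, so their counts could hardly move.

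**Figure D5:**
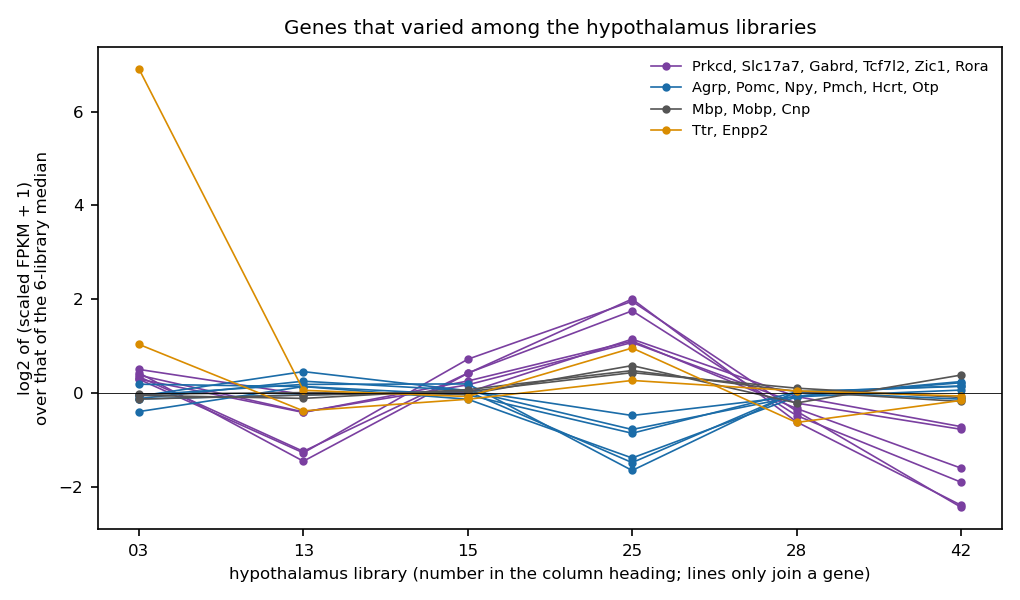
Level of 17 genes in each hypothalamus library as the log2 ratio of (scaled FPKM + 1) to that of the 6-library median; colours mark 4 gene sets and lines join the values of a gene. Library 25 is high for the purple genes of other brain regions and low for the blue peptide genes and Otp, library 42 is low for the purple genes, and library 03 stands out for Ttr (483 FPKM).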

How the data were processed

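RNA of hypothalamus, gonadal adipose and liver was isolated with a column kit for DNA and RNA and, per the labels' protocols, sequenced on a HiSeq2500 after poly-A selection (TruSeq). The tools named by the submitters' processing notes are HISAT 0.1.6 and StringTie 1.0.4, and the build is mm10. What each tool did, which annotation was used and whether reads were stranded is not given in the sources used here. The deposited values are FPKM per transcript model and per gene, as made by the authors, in 1 table pair per tissue. The tables held 65611 models for hypothalamus, 60420 for adipose and 51785 for liver.

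From the transcript tables, FPKM was summed over the models of a gene name. There were 31 non-numeric cells, which affected 27 names and were taken as missing, and these libraries were left out of those names' fits. Each library was divided by the median of its ratios to the geometric mean over 5602 names at or above 1 FPKM in all 18 libraries (factors 1.31 to 1.37 for hypothalamus, 0.78 to 0.98 for adipose and 0.78 to 0.86 for liver). Names with at least 1 FPKM in at least 6 libraries were fitted with limma 3.58.1 (R 4.3.3) on log2(FPKM + 1), all 18 libraries in a single fit with a trend on the mean, two-sided, with Benjamini-Hochberg adjustment over all 12628 names. A log2 difference on this scale understates the change of low genes. The fit was tested on simulated data with known differences. For a list, counts and medians were given with no set test.

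Every group has 6 libraries, given as lowest, median and highest. The precision of a single FPKM is unknown, since low values showed no whole-read steps and no counts were used here. Genes that overlap or have close copies can exchange fragments between models, and without known strandedness a gene and its antisense neighbour cannot be told apart.

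The members, gene lists and tests were chosen with earlier results of these data known. Named genes were the 5 markers, in each list up to 4 called and 4 not called members with the highest hypothalamus median, and the genes with the largest differences or highest levels over all names. Pomc, Npy, Nkx2-1, Sim1, Siglech, Tcf7l2, Ntng1, Ldha, Eno2, Hk1, Acsl1, Meg3, H19, Ptbp1, Plvap and a few others named beside them were singled out after their values were seen. Planned isoform shares were not run, because model identifiers shared between tables (48756 with adipose, 44592 with liver) stood at the same position in 16 and 0 cases. Promoters came from RefSeq (GRCm38.p6), which matched 100 of 132 genes of the text. Some genes that this rule names are not reported here. Alternatives were 2 other scalings, a pseudocount of 0.1, no filter, the gene table, non-numeric cells as 0, 2 tissues per fit, the heading number as a block, each library left out, and, added after the data were seen, 3 libraries left out together. Figures were drawn with matplotlib 3.10.9 in Python 3.11.15.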

Additional observations from a re-analysis of the deposited data

Results flagged for a closer look

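Within each tissue, values of the 132 genes of the text were examined for a library far from the other 5, and 48 of 272 groups of 6 held such a value. The limit would give about 1 in 20 groups only for independent, normally distributed values. These FPKM values need not be so distributed, and genes of 1 library are not independent of each other. Some genes were also singled out after their values were seen, so no excess over chance is read from the count. Hypothalamus library 25 accounts for 14 of them. There Agrp (1.32 FPKM), Pomc (2.84), Npy (10.2), Glp1r (0), Dlk1 (26.9) and Resp18 (183) were low, and Nefh (20.9), Slc17a7 (30.8), Gabrd (16.7), Ntng1 (20.7), Nptx2 (16.2), Ldhb (227), Mbp (2247) and Cnp (288) were high.

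Liver library 15 accounts for 13, all of them genes of neurons, secretion or myelin that stood near 0 in the other 5 liver libraries: Mbp (8.4 FPKM), Cpe (4.73), Rab3a (2.47), Snap25 (1.94), Mobp (1.89), Pmch (1.85), Syp (1.61), Nnat (1.27), Avp (1.24), Scg2 (1.19), Pcsk1n (1.17), Tubb3 (1.11) and Gap43 (1.1). These values are small beside those of hypothalamus.

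Hypothalamus library 03 stood apart for Ttr (483 FPKM), Enpp2 (87.2) and Kl (2.95), and library 42 for a low Kif5a (47.5) and a high Ndn (310), Cyp2e1 (4.98) and Mgst1 (11.5). The low Kif5a value can be a failed estimate of its leading model. P2ry12 was low in hypothalamus library 28 (2.05 FPKM). In adipose, library 25 was high for Nmb (2.9), Ddc (1.61), Dlk1 (1.03), Kl (2.17) and Ckb (62.7), library 03 was high for Ntsr2 (5.22) and low for Aldoa (171), Npy reached 77.0 in library 10, Hba-a1 1429 in library 15 and Meg3 9.37 in library 42. In liver, Alb was low in library 28 (1308), Jund high in library 28 (34.9) and Scd1 high in library 42 (494).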

How the results depend on the processing

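The scaling moved most. With FPKM as deposited 639 names were lower than in both tissues, against 1055. With every library scaled to an equal sum 5083 names were higher than in adipose (3337 in the scaling used), 8442 higher than in liver (4507) and 4674 higher than in both (2831). The rule of no overlap, with no fold limit, gave 1612 names below both tissues. Under the 2 other scalings 2828 of the 2831 higher names kept their call in each, while 639 and 780 of the 1055 lower names did. The Ddc difference from liver turned to 0.10 as deposited and 0.44 with equal sums, and the Apoe difference from adipose to 0.14 as deposited; the cause was not tested. Leaving out each library in turn gave 3338 to 3481 names higher and 2418 to 2531 lower than in adipose, 4491 to 4678 higher and 2342 to 2401 lower than in liver, 2828 to 2952 higher than in both and 1027 to 1083 lower than in both. A pseudocount of 0.1 gave 3161 higher and 1458 lower than in both, no filter 3015 and 1050, and the deposited per-gene tables gave 2553 and 904.

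The numbers in the headings, used as a replicate block, gave 2830 names higher and 1016 lower than in both. Same-numbered libraries of different tissues deviated together by correlations of -0.05 to 0.10. Such correlations cannot tell whether a shared number marks the same pup, so pairing remains unknown. Isoform shares and their alternatives were not run. Since no counts were used, the depth that limits low genes is unknown.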

Other observations

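Immediate early genes, which neurons and other cells switch on within minutes of stimulation or handling, were mixed. Of 19 tested members 5 were higher in hypothalamus than in both tissues and 2, Ier2 and Btg2, were lower, beside 22.4% and 8.35% of all tested names. The higher count was 11 with equal sums, and the lower count was 1 under both other scalings, in the gene table and without hypothalamus 03, hypothalamus 25, liver 15, liver 28 or libraries 03 and 25 and liver 15 together. Jund gave 56, 60.8 and 64.8 FPKM (lowest, median and highest) against 17, 18.9 and 25.5 in adipose and 17.3, 19.6 and 34.9 in liver. Arc, a synaptic activity gene, gave 2.3, 3.78 and 4.56 FPKM and reached 1.41 in adipose. Nptx2, an activity-regulated pentraxin, gave 7.92, 9.49 and 16.2 FPKM. Fos was 3.16, 5.64 and 7.92 FPKM in hypothalamus and 0, 3.57 and 5.57 in adipose, which overlap. Its difference from adipose was 0.91 (adjusted p = 0.053) and passed both limits with FPKM as deposited (1.39), with equal sums (1.66), in the gene table (1.16) and without hypothalamus 13 or adipose 15, 41 or 42 (1.02 to 1.11). Egr1 was 5.47, 9.39 and 14.1 FPKM in hypothalamus and 2.86, 10.3 and 17.1 in liver, which overlap too; its difference from liver was 0.07 and 1.08 with equal sums.

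Among 29 markers of neurons outside the hypothalamus, 19 were tested and 11 were higher than in both tissues, beside 22.4% of all tested names. Calb2 (calretinin), which marks cells in several brain regions, gave 98.3, 108 and 133 FPKM with 0 elsewhere. Cst3 (cystatin C), a protease inhibitor secreted by astrocytes and many other cells, gave 626, 705 and 781 FPKM against 176, 217 and 248 in adipose and 83.9, 102 and 112 in liver (differences 1.74 and 2.83, SE 0.10, on the log2 scale). Gnas, the imprinted gene of the stimulatory G protein, gave 194, 232 and 257 FPKM against 69.5, 177 and 206 and 119.9, 129 and 156 and was under the 2-fold limit in both contrasts, though past it in both with FPKM as deposited (1.20 and 1.45).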
